A study of Homo sapiens with 18 samples.

Results

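The miR-183, miR-96 and miR-182 cluster is described here by the 5p arms of its 3 hairpins, chosen by name as the rows HSA-MIR-183-5P, HSA-MIR-96-5P and HSA-MIR-182-5P (miR-183-5p, miR-96-5p and miR-182-5p from here on). These are 3 of the 2167 mature miRNAs in the small RNA tables. The 3 other arms of the same hairpins, miR-183-3p, miR-96-3p and miR-182-3p, were also listed and are described beside them. The cells were wild-type (WT) HCT116, an epithelial line from a human colorectal carcinoma, with no other treatment than time in culture. They had been grown in plates for 3 days to 50% confluency, for 5 days to 250%, or for 7 days to 400% in the sample titles and 300 to 400% in the study methods. Time in culture and cell density rose together, so they cannot be told apart. In RNA of whole cultures, fewer cells of a kind and less RNA per cell cannot be told apart either. Small RNA libraries from whole-cell RNA numbered 3 per day, 9 in all, and whole transcriptome values of the same line were available as 3 libraries on day 3 and 3 on day 5. Day 7 whole transcriptome values were not analysed here.

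A mature miRNA is cut from one arm of an RNA hairpin and guides an Argonaute protein to messenger RNAs, mostly through pairing of its seed, bases 2 to 8, with sites in 3′UTRs. The 3 miRNAs of this cluster are made from neighbouring hairpins transcribed in one direction. They are best known from hair cells, photoreceptors and other sensory cells, where miR-96 is a deafness gene, and they are often found at high level in carcinomas, where FOXO1 and FOXO3, transcription factors that restrain growth, are among the targets most often described.

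The mature sequences are shown because the seeds set the members apart. They are from RefSeq on GRCh38.p14, written 5′ to 3′, with bases 2 to 8 in capitals.
miR-183-5p: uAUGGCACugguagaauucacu
miR-96-5p: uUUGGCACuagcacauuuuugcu
miR-182-5p: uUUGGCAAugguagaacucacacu
The other arm of the miR-183 hairpin, the only 3p arm that was measured well, and the one other listed miRNA that shares a member's seed follow.
miR-183-3p: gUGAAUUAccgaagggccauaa
miR-1271-5p: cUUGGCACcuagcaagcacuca

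With positions counted from 1 at the 5′ end of each miRNA, the seeds of miR-183-5p and miR-96-5p differed by A2U and those of miR-182-5p and miR-96-5p by A8C. The seed of miR-182-5p differed from that of miR-183-5p at both places, U2A and A8C. Outside the seed, aligned from the 5′ end with no gap, miR-183-5p and miR-182-5p were identical at 13 of 15 positions, miR-183-5p and miR-96-5p at 7 of 15 and miR-182-5p and miR-96-5p at 6 of 16. No member shared its seed with another member. miR-1271-5p, encoded on the plus strand at chr5:176367960-176367981, has the seed of miR-96-5p.

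The hairpins lie on the minus strand of chromosome 7 (GRCh38), MIR183 at chr7:129774905-129775014, MIR96 at chr7:129774692-129774769 and MIR182 at chr7:129770383-129770492. The gap between MIR183 and MIR96 was 135 bases and that between MIR96 and MIR182 was 4199 bases, and the 3 hairpins together spanned 4632 bases. All 3 fall in an intron of the 1 annotated transcript of the long noncoding gene ENSG00000286380, at chr7:129763060-129780220 on the same strand. The mature 5p arms map to chr7:129774967-129774988 for miR-183-5p, chr7:129774739-129774761 for miR-96-5p and chr7:129770447-129770470 for miR-182-5p.

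The small RNA values were log2 numbers whose exact scale no source names. The study methods state reads per library only as a range, so the depth and counting error of each library are unknown. Back-transformed and summed over all miRNAs, the day 7 libraries totalled 2452607 to 2600754, above the 1542087 to 1947371 of day 3 and the 1712225 to 1884026 of day 5. Day 3 replicate 3 had the lowest total and the lowest day 3 value of all 3 members. For this reason the members are given on the deposited scale and as shares or ratios within a library, which do not depend on scaling between libraries. The whole transcriptome libraries held 27470978 to 56689369 reads. The 7 epithelial markers summed to 896 to 1161 CPM (counts per 1000000 reads) on day 3 and 1988 to 2044 CPM on day 5. Of these, 5 could be tested and 4 were higher on day 5, beside 29.3% of all genes tested: CDH1 by 2.63, KRT8 by 1.05, KRT18 by 0.93 and CDX2 by 0.44 on the log2 scale (limma adjusted p = 0.0001, 0.0041, 0.0041 and 0.0089). EPCAM stood at 7227 ± 257 on day 3 and 7236 ± 173 on day 5 (normalized value, SD, n = 3), and the intestinal markers CDH17 and VIL1 lay below the minimum for testing. The 4 fibroblast markers summed to 13.2 to 17.5 CPM on day 3 and 32.7 to 34.7 CPM on day 5. COL1A1 made up most of this sum and rose 2.17-fold (limma adjusted p = 0.0003). COL1A2 differed by -0.39 on the log2 scale (limma adjusted p = 0.400), and DCN and PDGFRB lay below the minimum for testing. The summed level of the 3 leukocyte markers reached at most 0.159 CPM. Of 3 endothelial markers, 2 were measured and summed to 0.218 to 0.600 CPM on day 3 and 0.594 to 1.17 CPM on day 5, and VWF among them was higher on day 5 (2.20-fold, limma adjusted p = 0.0414). The part of these shifts in the results below was not tested.

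All 3 members were among the well-expressed miRNAs on every day, in the order miR-182-5p, miR-183-5p, miR-96-5p. By mean level, miR-182-5p ranked 14 of 2167 on day 3, 14 on day 5 and 12 on day 7. miR-183-5p ranked 41, 43 and 44, and miR-96-5p ranked 60, 78 and 68. In every one of the 9 libraries the 3 members kept this order. Levels here are normalized reads of molecules of nearly one length, 22 to 24 bases, and differences in how well each is captured in a library were not measured.

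miR-182-5p had log2 values of 15.02, 15.10 and 14.69 in the 3 day 3 libraries. On day 5 they were 14.98, 15.14 and 15.02. On day 7 they were 15.82, 15.96 and 15.84. The day 7 libraries all lay above every library of the earlier days, while those of day 3 and day 5 overlapped. Over all miRNAs tested, the libraries did not overlap for 34% between day 5 and day 3, 65.7% between day 7 and day 3 and 62.4% between day 7 and day 5.

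miR-183-5p had log2 values of 13.00, 13.07 and 12.60 on day 3. The day 5 values were 12.66, 12.85 and 12.67, and the day 7 values were 13.18, 13.26 and 13.12. Days 3 and 5 overlapped, and the day 7 libraries stood above both, though only just above the highest of day 3.

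miR-96-5p had log2 values of 11.94, 12.06 and 11.60 on day 3. They were 11.08, 11.25 and 11.15 on day 5 and 11.78, 11.92 and 11.89 on day 7. Its day 5 libraries lay below all the others, and day 3 and day 7 overlapped.

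**Figure D1:**
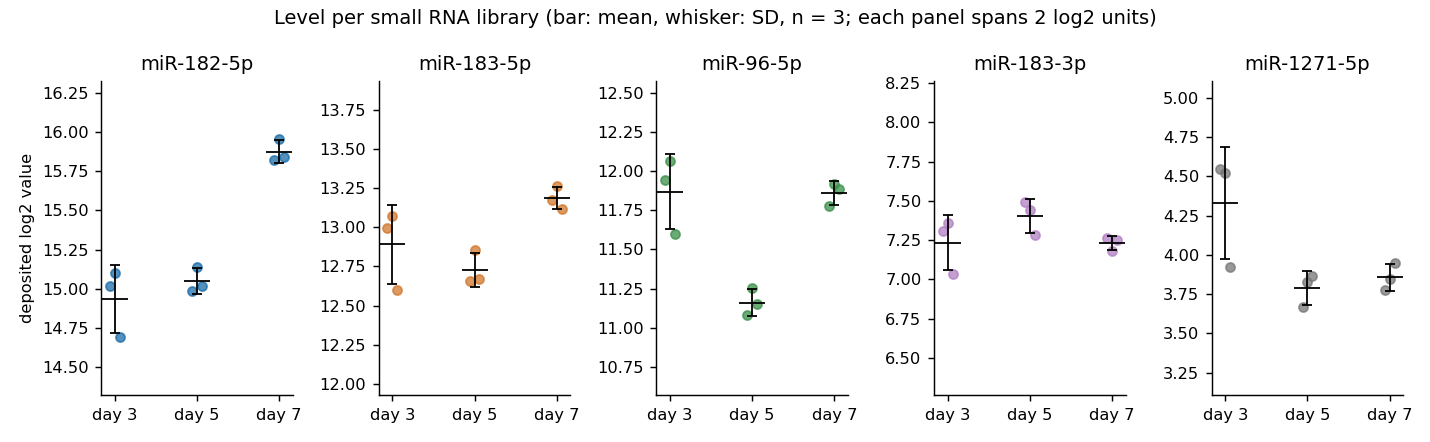
Deposited log2 value (vertical axis) of the 3 members, miR-183-3p and miR-1271-5p in each small RNA library of day 3, day 5 and day 7; points are libraries, bars are means and whiskers SD (n = 3), and every panel spans the same height. miR-182-5p is high on day 7, miR-96-5p is low on day 5, and the day 3 libraries are the most spread.

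Between day 3 and day 5, miR-96-5p fell and the other members did not pass the test. The log2 fold change of miR-96-5p was -0.71 (SE 0.14, 0.613-fold, limma adjusted p = 0.0115). That of miR-182-5p was 0.11 (95% interval -0.19 to 0.41, limma adjusted p = 0.626) and that of miR-183-5p was -0.16 (-0.49 to 0.17, limma adjusted p = 0.499). One of 3 members was thus called, against 14.8% of the 539 miRNAs tested, with 8.53% called higher and 6.31% lower. The fall of miR-96-5p ranked 23 from the lowest of the 539. Without day 5 replicate 1 it was -0.67, with limma adjusted p = 0.0550, and without day 3 replicate 3 it was -0.84 (limma adjusted p = 0.0016).

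Between day 3 and day 7, miR-182-5p rose by 0.94 on the log2 scale (SE 0.13, 1.92-fold, limma adjusted p = 0.0007). miR-183-5p differed by 0.29 (95% interval -0.03 to 0.62, limma adjusted p = 0.108) and miR-96-5p by -0.01 (-0.32 to 0.31, limma adjusted p = 0.966). Here 53.7% of 559 miRNAs were called, with 45.3% higher and 8.41% lower, and the median miRNA stood 0.30 higher on day 7. The value of miR-183-5p was therefore close to that of the median miRNA, and miR-182-5p ranked 53 from the highest of the 559. Without day 3 replicate 3 the rise of miR-182-5p was 0.82 (limma adjusted p = 0.0007).

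Between day 5 and day 7 all 3 members were higher on day 7. miR-182-5p rose by 0.83 (SE 0.12, limma adjusted p = 0.0008), miR-96-5p by 0.70 (SE 0.12, limma adjusted p = 0.0019) and miR-183-5p by 0.46 (SE 0.13, limma adjusted p = 0.0169). The background was 44.3% of 567 miRNAs called, with 39.3% higher and 4.94% lower, and a median change of 0.26. The call of miR-183-5p was lost without day 5 replicate 1, day 5 replicate 3 or day 7 replicate 2, at adjusted p-values of up to 0.0642 (limma).

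The miR-96-5p level on day 5 lay off the line between the outer days. Against the mean of day 3 and day 7, it was lower by -0.70 (SE 0.11, limma adjusted p = 0.0028), and it ranked 16 from the lowest of 567 miRNAs. The same contrast was -0.36 for miR-182-5p (SE 0.10, limma adjusted p = 0.0335) and -0.31 for miR-183-5p (limma adjusted p = 0.0809), against 20.3% of miRNAs called, with 3.35% called higher and 16.9% lower. The call of miR-182-5p was lost when 8 of the 9 libraries were left out in turn, every one but day 3 replicate 3, at adjusted p-values of up to 0.134 (limma).

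The scale bears on day 7 in particular. With every library scaled to its miRNA total, miR-182-5p was still higher on day 7 than on day 3, by 0.44 (limma adjusted p = 0.0018), while miR-96-5p was lower by -0.51 (limma adjusted p = 0.0015) and miR-183-5p turned to -0.21 (limma adjusted p = 0.0386). On that scale the median miRNA of this comparison stood at -0.20, and 319 of 559 miRNAs were called, 93 higher and 226 lower. The rise of miR-96-5p from day 5 to day 7 was 0.20 on that scale (limma adjusted p = 0.0130), and the difference of miR-183-5p was -0.04 (limma adjusted p = 0.614). Between these days the median miRNA stood at -0.24 by library totals, and 306 of 567 were called, 60 higher and 246 lower. The fall of miR-96-5p from day 3 to day 5 hardly moved, at -0.72 by library totals (limma adjusted p = 0.0011) and -0.66 after centring on the median (limma adjusted p = 0.0026). In that comparison 63 of 539 miRNAs were called lower by library totals and 42 after centring.

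**Figure D2:**
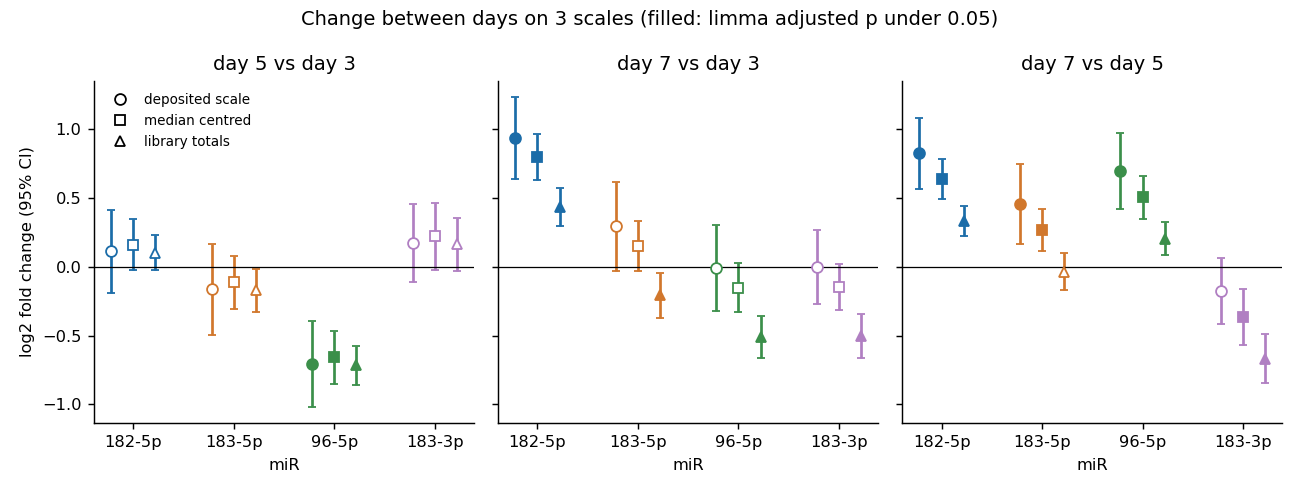
Log2 fold change with 95% interval (vertical axis) of the members and miR-183-3p in the 3 comparisons of days, on the deposited scale (circles), after median centring (squares) and by library totals (triangles); filled symbols passed limma at an adjusted p under 0.05. The fall of miR-96-5p on day 5 and the rise of miR-182-5p on day 7 keep their side of 0 on all 3 scales, while miR-183-5p changes side in the day 7 comparisons.

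As a share of all miRNA signal, the members together made up 2.43%, 2.47% and 2.32% in the day 3 libraries. The shares were 2.40%, 2.44% and 2.37% on day 5 and 2.89%, 2.97% and 2.86% on day 7. The mean was thus 2.40% ± 0.08 on day 3, 2.40% ± 0.03 on day 5 and 2.91% ± 0.06 on day 7 (SD, n = 3). Day 3 and day 5 overlapped (exact permutation test, two-sided, p = 1). Day 7 stood above both by 0.503 percentage points, with no overlap (exact permutation test, p = 0.1, the smallest p that 3 against 3 libraries can give; Benjamini-Hochberg over the 3 pairs of days, 0.15). Beside this, 66.9% of the miRNAs tested between day 7 and day 3 had shares that did not overlap, 66.3% between day 7 and day 5 and 44.2% between day 5 and day 3.

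The members took unlike parts in this share. miR-182-5p alone was 1.77% ± 0.05 of the miRNA total on day 3, and it was 1.90% ± 0.02 on day 5 and 2.39% ± 0.05 on day 7 (SD, n = 3). miR-183-5p took 0.428% ± 0.022, 0.380% ± 0.012 and 0.370% ± 0.012 on the 3 days. miR-96-5p took 0.211% ± 0.009, 0.128% ± 0.001 and 0.148% ± 0.004. Within the cluster, miR-182-5p was 73.4% ± 0.4 of the summed value on day 3, 78.9% ± 0.3 on day 5 and 82.2% ± 0.2 on day 7, and miR-96-5p was 8.76% ± 0.13, 5.33% ± 0.06 and 5.08% ± 0.19.

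**Figure D3:**
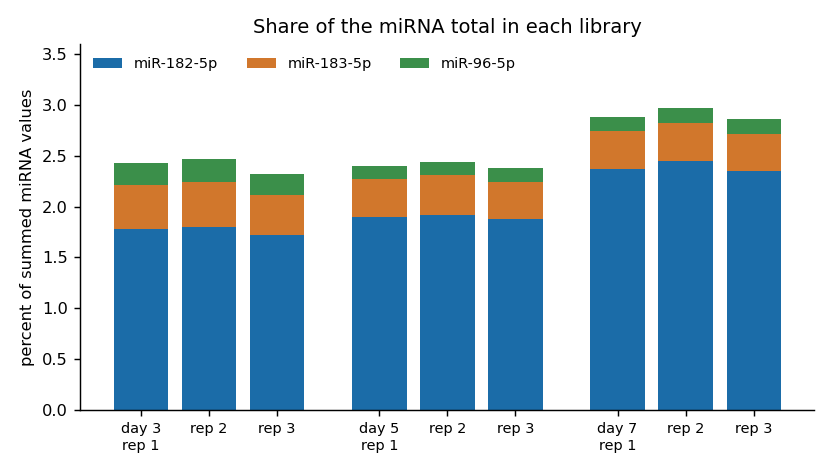
Percent of the summed miRNA values (vertical axis, from 0) taken by miR-182-5p, miR-183-5p and miR-96-5p, stacked, in each of the 9 small RNA libraries. The stacks of day 7 reach 2.86% to 2.97%, those of day 3 and day 5 lie between 2.32% and 2.47%, and the miR-96-5p part is thickest on day 3.

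miR-182-5p stood above miR-183-5p by 4.13-fold on day 3, 4.99-fold on day 5 and 6.45-fold on day 7. The log2 ratio of miR-183-5p over miR-182-5p was -2.02, -2.03 and -2.09 on day 3. It was -2.33, -2.29 and -2.35 on day 5, and -2.65, -2.70 and -2.72 on day 7. The days did not overlap, and the ratio stepped down from each day to the next. Of all miRNAs set against miR-182-5p, 40.9% had ratios without overlap between day 5 and day 3, 82.1% between day 7 and day 3 and 83.6% between day 7 and day 5.

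miR-182-5p stood above miR-96-5p by 8.39-fold on day 3, 14.8-fold on day 5 and 16.2-fold on day 7. The log2 ratio of miR-96-5p over miR-182-5p was -3.08, -3.04 and -3.09 on day 3. It dropped to -3.90, -3.89 and -3.87 on day 5 and stood at -4.05, -4.04 and -3.96 on day 7. Most of the drop lay between day 3 and day 5.

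miR-183-5p stood above miR-96-5p by 2.03-fold on day 3, 2.96-fold on day 5 and 2.51-fold on day 7. The log2 ratio of miR-96-5p over miR-183-5p was -1.055, -1.012 and -1.001 on day 3. It was -1.58, -1.60 and -1.52 on day 5, and -1.40, -1.34 and -1.23 on day 7. This pair alone came partly back on day 7, with no overlap between any of the days. Against miR-183-5p, 53.5% of all miRNAs had no overlap between day 5 and day 3. Between day 7 and day 3 that share was 55.6%, and between day 7 and day 5 it was 60.1%.

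Each of these 9 differences between days in the ratios reached the smallest p of the exact permutation test, p = 0.1, also after Benjamini-Hochberg adjustment over the 9. With the values of all miRNAs taken relative to miR-182-5p and tested by limma, a test chosen after the data were seen, miR-96-5p changed by -0.82 from day 3 to day 5 (SE 0.06; adjusted p = 0.0007) and by -0.95 from day 3 to day 7 (SE 0.07; adjusted p = 9.3e-05). Between day 5 and day 7 it differed by -0.13 (95% interval -0.25 to -0.0045, limma adjusted p = 0.0533). miR-183-5p relative to miR-182-5p changed by -0.27 from day 3 to day 5 (limma adjusted p = 0.0242), by -0.64 from day 3 to day 7 (limma adjusted p = 0.0003) and by -0.37 from day 5 to day 7 (limma adjusted p = 0.0004). Relative to miR-182-5p, 19.3%, 77.8% and 80.9% of all miRNAs were called in the comparisons of day 5 with day 3, day 7 with day 3 and day 7 with day 5, so on day 7 most miRNAs stood lower against it.

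Relative to miR-183-5p, miR-96-5p changed by -0.54 from day 3 to day 5 (limma adjusted p = 0.0050), by -0.30 from day 3 to day 7 (limma adjusted p = 0.0273) and by 0.24 from day 5 to day 7 (limma adjusted p = 0.0293). The background relative to miR-183-5p was 33.5%, 39.2% and 36.6% of miRNAs called in those comparisons. The neighbours MIR183 and MIR96, 135 bases apart, thus gave mature 5p arms whose ratio differed between all 3 days in that test.

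**Figure D4:**
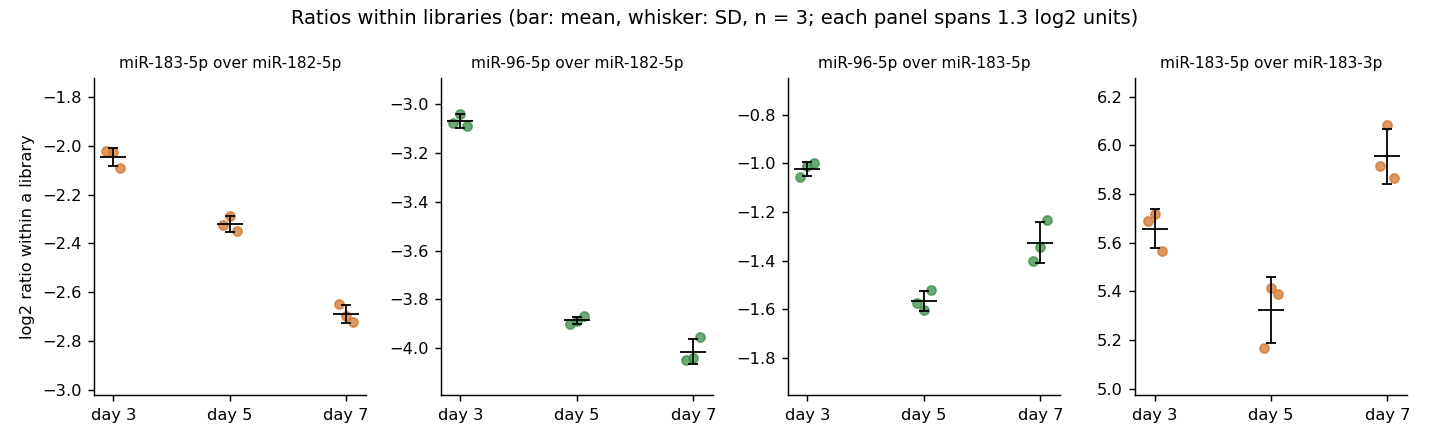
Log2 ratio within a library (vertical axis) of each pair of members and of the miR-183 arms on day 3, day 5 and day 7; points are libraries, bars are means and whiskers SD (n = 3), and every panel spans the same height. Both ratios to miR-182-5p step down, miR-96-5p over miR-183-5p is lowest on day 5, and miR-183-5p over miR-183-3p is lowest on day 5 and highest on day 7.

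The arms of the hairpins were used very unequally. miR-183-3p had log2 values of 7.31, 7.36 and 7.04 on day 3, 7.49, 7.44 and 7.28 on day 5, and 7.26, 7.18 and 7.25 on day 7. The 5p arm of this hairpin stood 50.5-fold above the 3p arm on day 3, 40.04-fold on day 5 and 62.0-fold on day 7. miR-182-3p had log2 values between 2.13 and 3.38, and miR-96-3p between -1.51 and -0.70. Most miR-96-3p values lay close together, from -1.51 to -1.46, and whether they mark the floor of the scale is not known. Both of these 3p arms lay below the minimum for testing in these libraries and are given as values only.

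miR-183-3p did not pass the test in any comparison of days on the deposited scale. Its log2 fold change was 0.17 from day 3 to day 5 (limma adjusted p = 0.403), -0.0025 from day 3 to day 7 (limma adjusted p = 0.987) and -0.17 from day 5 to day 7 (limma adjusted p = 0.197). By library totals it was lower on day 7, by -0.50 against day 3 (limma adjusted p = 0.0019) and by -0.67 against day 5 (limma adjusted p = 0.0006). On that scale 226 of 559 miRNAs were called lower against day 3 and 246 of 567 against day 5. The log2 ratio of miR-183-5p over miR-183-3p was 5.69, 5.72 and 5.57 on day 3. It was 5.17, 5.41 and 5.39 on day 5 and 5.91, 6.08 and 5.87 on day 7, and no pair of days overlapped.

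The change in this arm ratio was -0.33 from day 3 to day 5, 0.30 from day 3 to day 7 and 0.63 from day 5 to day 7. Each had p = 0.1 in the exact permutation test, the smallest it can give. By limma on values relative to miR-183-5p, chosen after the data were seen, the adjusted p-values were 0.0414, 0.0462 and 0.0029. In that test 33.5%, 39.2% and 36.6% of all miRNAs were called. Relative to miR-183-5p, the median miRNA changed by 0.235, 0.01 and -0.2, and miR-183-3p by 0.33, -0.30 and -0.63. Of all miRNAs set against miR-183-5p, 53.5%, 55.6% and 60.1% had ratios that did not overlap in these comparisons.

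miR-1271-5p, which shares the seed of miR-96-5p but comes from chromosome 5, was scarce, with log2 values of 4.55, 4.52 and 3.92 on day 3, 3.67, 3.83 and 3.87 on day 5, and 3.78, 3.85 and 3.95 on day 7. It differed by -0.54 between day 3 and day 5 (limma adjusted p = 0.0736) and by -0.47 between day 3 and day 7 (limma adjusted p = 0.0482), and the second call was lost without any one of 5 of the 6 libraries. Its mean level was 11.4, 7.74 and 5.77 CPM, taken over all miRNA signal, on the 3 days, against 2106, 1282 and 1478 for miR-96-5p.

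The miRNAs whose pattern over the 9 libraries was nearest to the mean of the 3 members, out of 452 well-expressed miRNAs compared after centring each on its own mean, were miR-30c-5p, miR-125b-5p, miR-429, miR-330-3p and miR-27b-3p. Their mean absolute distances were 0.04, 0.05, 0.06, 0.06 and 0.06 on the log2 scale. The members themselves lay farther from that mean, at 0.07 for miR-183-5p, 0.19 for miR-96-5p and 0.20 for miR-182-5p. The 5 were picked as the nearest of 452 and the members were fixed by name, so the order follows partly from that choice. All of these points share the libraries and their scaling.

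In the whole transcriptome libraries the hairpin genes MIR183, MIR96 and MIR182 had 0 to 3 reads per library, too few to compare. Of 9 protein-coding and long noncoding genes within 250 kb of the miR-183 hairpin, 4 could be tested between day 3 and day 5, and 2 were called, against 56.9% of 20129 genes.

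UBE2H, a ubiquitin-conjugating enzyme whose gene lies beside the cluster at chr7:129830732-129952960 on the same strand, had normalized values of 4177, 4561 and 4735 on day 3 and 8453, 8741 and 8718 on day 5. It rose by 0.95 on the log2 scale (SE 0.08, limma adjusted p = 0.0003). ZC3HC1, which encodes a nuclear zinc finger protein, fell by 0.41 (limma adjusted p = 0.0275), a call that was lost without any one of the day 5 libraries. NRF1, a transcription factor of nuclear genes for mitochondria that lies on the other strand, differed by -0.22 (limma adjusted p = 0.106, edgeR adjusted p = 0.0176). The long noncoding ENSG00000273329 differed by -0.10 (limma adjusted p = 0.546). The gene around the hairpins, ENSG00000286380, had no values among the genes listed for the whole transcriptome, so it could not be analysed here.

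Of 5 transcription factors described to act on the cluster, 4 could be tested between day 3 and day 5, against a background of 29.3% of genes called higher and 27.6% called lower. ZEB1 and CTNNB1 were lower on day 5 and TCF7L2 was higher, and ZEB2 reached the minimum for testing on day 3 alone. ZEB1, a repressor of epithelial genes, had normalized values of 646, 669 and 619 on day 3 and 406, 372 and 348 on day 5, and fell by 0.78 on the log2 scale (SE 0.09, limma adjusted p = 0.0008). ZEB2, its paralog, was very low, with 18, 27 and 9 reads on day 3 and 6, 2 and 6 on day 5. Its day 5 values all lay under the minimum, so it entered the test through its higher day only, and its fitted difference of -1.53 (limma adjusted p = 0.0117) is given as a description. TCF7L2, the DNA-binding partner of beta-catenin in Wnt signalling, rose by 0.94 (SE 0.09, limma adjusted p = 0.0004). CTNNB1, beta-catenin itself, fell by 0.27 (limma adjusted p = 0.0392), and this call was lost without any one of 5 of the 6 libraries. LEF1 lay below the minimum. Beside these, the rise of CDH1, the epithelial cadherin, is given above with the markers.

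Sites for the members in messenger RNAs were sought as the complement of the seed, which is GTGCCAT for miR-183-5p, GTGCCAA for miR-96-5p and TTGCCAA for miR-182-5p, and the long form has an A after these 7 letters. Only the sense strand of the 3′UTR was searched, and none of the 3 words contains another. An 8-letter match was held by 1.93% of 19229 annotated 3′UTRs for miR-183-5p, 3.16% for miR-96-5p and 5.70% for miR-182-5p. Of the 33 described targets, 8, 5 and 11 held one, and 21 held a match of any member, which is 63.6%, where 10.0% of all 3′UTRs did. The list was made of genes described as targets of these members, so a higher share comes with the list and is not a result of these data. 3′UTRs differ in length, and a match is a description, not a site shown to be bound.

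The sites below are a selection, shown because they belong to the described targets followed in the expression data. These genes hold further matches that are not shown, some of them of other members. Each site is read 5′ to 3′ from GRCh38 with the matching letters in capitals.
FOXO1, miR-96-5p, chr13:40558770-40558795, minus strand: ttacaatgaaGTGCCAAActcactac
FOXO1, miR-96-5p, chr13:40556895-40556920, minus strand: actgaacttgGTGCCAAAgtacttgt
FOXO3, miR-182-5p, chr6:108679854-108679879, plus strand: agaaaaccctTTGCCAAAtctgctct
FOXO3, miR-182-5p, chr6:108680696-108680721, plus strand: tctccactcaTTGCCAAAtgtcacta
ADCY6, miR-96-5p, chr12:48767970-48767995, minus strand: atgtttccatGTGCCAAAtcttagtc
ADCY6, miR-96-5p, chr12:48767781-48767806, minus strand: tcacctgcagGTGCCAAAgagcaggc
ADCY6, miR-96-5p, chr12:48767310-48767335, minus strand: agtcctttttGTGCCAAAtccctaag
EZR, miR-183-5p, chr6:158766531-158766556, minus strand: acttccatctGTGCCATActtgttct
ITGB1, miR-183-5p, chr10:32900543-32900568, minus strand: ctttgagttaGTGCCATAacagacca
PDCD4, miR-183-5p, chr10:110898338-110898362, plus strand: ccttttgtaaGTGCCATgtttatta
MITF, miR-182-5p, chr3:69967717-69967742, plus strand: tatttcttttTTGCCAAAtagagtgt

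Between day 3 and day 5, 31 of the 33 described targets could be tested. Of these, 14 were higher on day 5, 5 were lower and 12 did not pass the test. That is 61.3% called, beside 56.9% of all genes tested (29.3% higher and 27.6% lower) and 65.8% of the 13050 tested genes that have an annotated 3′UTR, as all described targets do. The median log2 fold change was 0.19 for the described targets, 0.12 for the genes with a 3′UTR and 0.01 for all genes. The list was compiled from genes described as targets in other settings, and the part of the members in these changes was not tested.

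FOXO1, a forkhead factor with 2 miR-96-5p matches of 8 letters, had normalized values of 348, 423 and 420 on day 3 and 763, 722 and 871 on day 5. FOXO1 rose by 0.98 on the log2 scale (SE 0.12, limma adjusted p = 0.0010). FOXO3, its relative with 2 miR-182-5p matches, had 1155, 1311 and 1263 on day 3 and 3563, 3869 and 3835 on day 5. It rose by 1.60 (SE 0.09, 3.02-fold, limma adjusted p = 0.0002), the largest rise of the described targets.

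ADCY6, an adenylyl cyclase with 3 miR-96-5p matches and 1 of miR-182-5p, had 798, 770 and 693 on day 3 and 1425, 1432 and 1387 on day 5, a rise of 0.91 (SE 0.08, limma adjusted p = 0.0004). MITF, a melanocyte and lysosome transcription factor with 2 miR-182-5p matches, was low, at 58.8, 67.4 and 68.0 on day 3 and 42.3, 39.7 and 55.9 on day 5. It fell by 0.50 (SE 0.15, limma adjusted p = 0.0303), a call lost without any one of 4 of the 6 libraries and by edgeR and DESeq2 on whole reads (adjusted p = 0.0503 and 0.155).

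PDCD4, an inhibitor of translation initiation with 2 miR-183-5p matches of 7 letters, had normalized values of 938, 914 and 720 on day 3 and 2023, 2433 and 2474 on day 5, and rose by 1.43 (SE 0.14, 2.70-fold, limma adjusted p = 0.0005). EGR1, an immediate early transcription factor with 1 match of 7 letters, had 2057, 2560 and 3859 on day 3 and 5068, 5351 and 5417 on day 5, and rose by 0.95 (SE 0.23, limma adjusted p = 0.0136). EZR, the membrane linker ezrin with 1 match of 8 letters, had 35701, 43658 and 47671 on day 3 and 80165, 82532 and 89334 on day 5, and rose by 1.00 (SE 0.13, limma adjusted p = 0.0011). All 3 genes passed the test as higher on day 5, beside 29.3% of all genes tested. ITGB1, integrin beta 1, holds miR-183-5p matches of 8 and 7 letters and had 14172, 14427 and 14922 on day 3 and 14123, 15443 and 16105 on day 5. The days overlapped, and it differed by 0.07 (95% interval -0.13 to 0.27, limma adjusted p = 0.513).

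Among the other described targets, IRS1, an adaptor of the insulin receptor, rose by 1.23 (SE 0.08, limma adjusted p = 0.0002), IDH2, the mitochondrial isocitrate dehydrogenase, by 1.12 (limma adjusted p = 0.0013) and TP53INP1, a stress protein, by 0.78 (limma adjusted p = 0.0016). The falls were led by BRCA1, a DNA repair protein, at -0.70 (SE 0.08, limma adjusted p = 0.0007), and PPP2CA, a catalytic subunit of protein phosphatase PP2A, at -0.61 (SE 0.07, limma adjusted p = 0.0010). BRCA1 holds no match of any member in this annotation, and PPP2CA holds miR-183-5p matches. SNAI2 and DKK3 lay below the minimum.

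**Figure D5:**
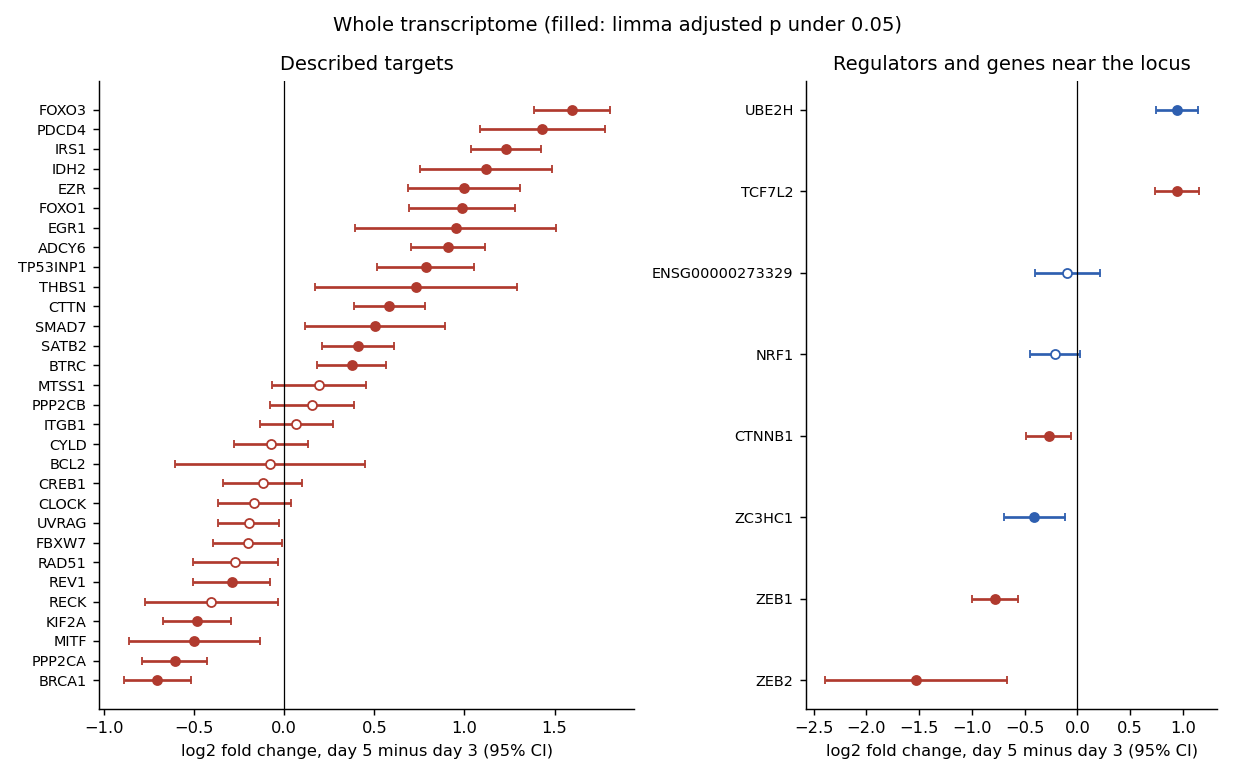
Log2 fold change from day 3 to day 5 with 95% interval (horizontal axis) of the described targets reported here (left) and of the regulators (red) and genes near the locus (blue) (right) in the whole transcriptome libraries, n = 3 per day; filled symbols passed limma at an adjusted p under 0.05. The targets range from -0.70 for BRCA1 to 1.60 for FOXO3, and more of them lie to the right of 0. ZEB2 reached the minimum for testing on day 3 alone.

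Genes with an 8-letter match were called at shares of 65.3% to 69.2%, beside 65.6% of the genes with no match. Of 13050 tested genes with an annotated 3′UTR, 65.8% were called and the median log2 fold change was 0.12. Among 288 genes with an 8-letter match of miR-183-5p, 65.3% were called, 106 higher and 82 lower, with a median of 0.09. Among 466 genes with a match of miR-96-5p, 67.4% were called, 192 higher and 122 lower, with a median of 0.16. Among 845 genes with a match of miR-182-5p, 69.2% were called, 326 higher and 259 lower, with a median of 0.07. The 11569 genes with no match of any member had 65.6% called and a median of 0.12. The part of the members in these values was not tested.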

How the data were processed

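Small RNA was measured in 9 libraries and the whole transcriptome in 6, with 3 labelled biological replicates per day. Per the study methods, the authors prepared small RNA libraries with TruSeq kits, trimmed reads with Cutadapt to lengths stated as 25 to 40 bases, longer than the mature members, mapped them to mature and hairpin sequences of GRCh37 and normalized by TMM. The deposited values are log2 numbers on a scale that is not named. For the whole transcriptome the deposited table holds a normalized signal per gene, made by the authors with strand-specific mapping to Ensembl 99 and TMM. Of these values, 100% were whole reads within 0.01, and the reads were recovered. The authors' own fold changes and p-values in these tables were not used.

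limma 3.58.1 in R 4.3.3 was fitted to the log2 values, and to log2(value + 1) of the whole transcriptome, so fold changes of low genes are understated. A feature was kept if 3 or more libraries of the comparison reached a value of 10 (3 of all 9 for day 7 against day 5 and for day 5 against the outer days). P-values were adjusted by Benjamini-Hochberg over all features at a threshold of 0.05, and intervals are 95%. For shares and ratios, exact permutation tests were used, two-sided (scipy 1.17.1). edgeR 4.0.16 and DESeq2 1.42.0 on recovered reads, library totals, median centring, no filter, a replicate block and leaving out each library were alternatives, and fits relative to 1 member were added after the data were seen. The fits were tested on simulated data. Sites were sought in the canonical 3′UTRs of GENCODE 44 on GRCh38. The members and gene lists were chosen with earlier results of these data known. The miRNAs and genes named were all arms of the 3 hairpins, miRNAs sharing a seed, the 5 nearest patterns, 9 described targets fixed by name (1 is not reported here, though it stays in the counts), the 3 largest rises and falls among the called described targets, and the tested locus and regulator genes. IDH2, TP53INP1 and the markers with values were added after their values were seen.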

Additional observations from a re-analysis of the deposited data

How the results depend on the processing

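The fall of miR-96-5p from day 3 to day 5 and the rise of miR-182-5p on day 7 kept their direction in all alternatives run. Leaving out 1 library at a time gave -0.84 to -0.61 for miR-96-5p (day 5 against day 3) and 0.82 to 1.02 for miR-182-5p (day 7 against day 3). Without a filter on low values, where 2167 miRNAs are tested, the first had limma adjusted p = 0.104 at -0.71, miR-183-5p at 0.46 (day 7 against day 5) had 0.0866, and miR-182-5p at -0.36 (day 5 against the outer days) had 0.131. By library totals, miR-183-5p turned to -0.21 (day 7 against day 3) and -0.036 (day 7 against day 5), miR-96-5p was called at -0.51 (day 7 against day 3), miR-182-5p at -0.11 (day 5 against the outer days) was not, and miR-1271-5p turned to -0.42 (day 7 against day 5; -0.12 median centred). miR-183-5p against the outer days was called after median centring, at -0.19, and with the replicate number as a block, at -0.31 (limma, adjusted p = 0.0453).

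Leaving out 1 library gave -0.14 to 0.088 for miR-96-5p and -0.10 to 0.059 for miR-183-3p (both day 7 against day 3, turning without day 3 replicate 1 or 2 and without 1 day 7 library), -0.010 to 0.19 for miR-182-5p (day 5 against day 3, turning without day 3 replicate 3) and -0.21 to 0.012 for ENSG00000273329. It gave 0.42 to 0.52 for miR-183-5p (day 7 against day 5), and against the outer days -0.38 to -0.26 for miR-183-5p and -0.42 to -0.32 for miR-182-5p. The causes were not tested.

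The number of miRNAs called between day 5 and day 3 was 80, but 135 by library totals, 124 median centred, 50 without a filter and 36 to 118 without 1 library. Against the outer days it was 115, but 227, 130, 41 and 40 to 236, and between day 7 and day 5 it was 251, but 164 without a filter. Higher calls were 84.3% of all calls for day 7 against day 3 and 29.2% by library totals, and 88.8% and 19.6% for day 7 against day 5. The described targets called numbered 19, with 14 to 24 in the alternatives. With the 10 highest miRNAs left out of the total, the cluster share differed by -0.14, 1.05 and 1.19 percentage points (day 5 against 3, 7 against 3, 7 against 5).

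Relative to 1 member, limma called the ratio changes that the exact test cannot call: miR-183-5p over miR-182-5p by -0.27, -0.64 and -0.37, miR-96-5p over miR-182-5p by -0.82 and -0.95, miR-96-5p over miR-183-5p by -0.54, -0.30 and 0.24, and the miR-183 arms by -0.33, 0.30 and 0.63. Deviations of same-numbered replicates had low correlations (r from -0.08 to 0.12 over 9 pairs). Between day 3 and day 5 these were 0.087, 0.116 and 0.114. The block gave 71 calls in place of 80 between day 5 and day 3, and whether the numbers mark a pairing is not known. Within pairs no exact p can be under 0.25. Small RNA depth, not known for each library, limits the scarce 3p arms most.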
